A study of Mus musculus with 6 samples.

Results

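The genes of lytic cell death and inflammasome signalling were followed in mouse kidney cortex after ischaemia-reperfusion injury (IRI), a loss of blood flow followed by its return. The 10 genes, Ripk1, Ripk3, Mlkl, Casp8, Casp1, Casp4, Gsdmd, Nlrp3, Pycard and Aim2, were chosen by symbol from the 26971 features of the count table, and each symbol had its row. Of these 10, 8 passed the filter on low counts, as did 14274 features in all, and Nlrp3 and Aim2 did not. The study compared 2 groups of 3 libraries, all from male C57BL/6 mice whose kidneys were taken 1 day after surgery. The group titled CLK_IRI had IRI alone, and the other, whose count columns read IVCC_IRI, had IRI with added renal congestion. Both groups had thus been injured. The labels expand neither CLK nor IVCC and give no age. Whether each sample is a separate animal is not stated, so that the p-values reflect the spread of these 6 samples alone. Uninjured kidney was not analysed here, so no value below shows what the injury itself did.

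In necroptosis, the kinase RIPK1 recruits the kinase RIPK3 below a death receptor, RIPK3 phosphorylates MLKL, and MLKL breaches the plasma membrane. Caspase-8 blocks this route by cleaving the kinases. In pyroptosis, a sensor such as NLRP3 or AIM2 assembles with the adaptor ASC, the product of Pycard, to activate caspase-1, whereas the product of Casp4 senses bacterial lipopolysaccharide inside the cell. Both inflammatory caspases cut gasdermin D, the product of Gsdmd, into a pore-forming fragment, and caspase-1 also matures interleukin-1 beta and interleukin-18. These routes are controlled to a large part by protein cleavage and phosphorylation, which a count of messenger RNA does not measure. In bulk cortex, fewer cells of a type and less RNA per cell cannot be told apart.

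Total counts ranged from 10865860 to 14350425 per library. Levels are given as CPM, the count of a gene scaled to the library size with TMM factors, and a difference is a log2 value, congested minus IRI alone. The libraries numbered 1 in both groups stood apart from the other 4. By edgeR the replicate numbers differed for 1144 of 14274 genes (8.01%) at an adjusted p under 0.05, and 501 of those, 3.51% of all tested genes, were highest in replicate 1. The kidney identity of the libraries was checked on 10 proximal tubule markers and 10 markers of distal segments and podocytes, and all of them passed the filter. Slc34a1, the phosphate transporter of the proximal tubule, stood at 593.7, 2287 and 2166 CPM in IRI replicates 1, 2 and 3 and at 465.6, 2384 and 2310 CPM in the congested ones.

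No member was called different between congested and non-congested injured kidney. In edgeR's quasi-likelihood test 0 of the 8 tested members passed an adjusted p under 0.05, and over all 14274 genes 0% did. At an unadjusted p under 0.05, 0 members and 285 genes (2%) passed. DESeq2 and limma-voom called 0 genes without a block too. With the number as a block, edgeR called 0 genes, 1008 (7.06%) at an unadjusted p under 0.05, and DESeq2 called 10 (0.0729%), none of them a member. Of the 8 members 5 lay above 0 and 3 below, with a median log2 fold change of 0.05, whereas 49.6% of all tested genes lay above 0 with a median of -0.005. The values of the groups overlapped for all 10 members, and 6.49% of all tested genes had groups that did not overlap.

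**Figure D1:**
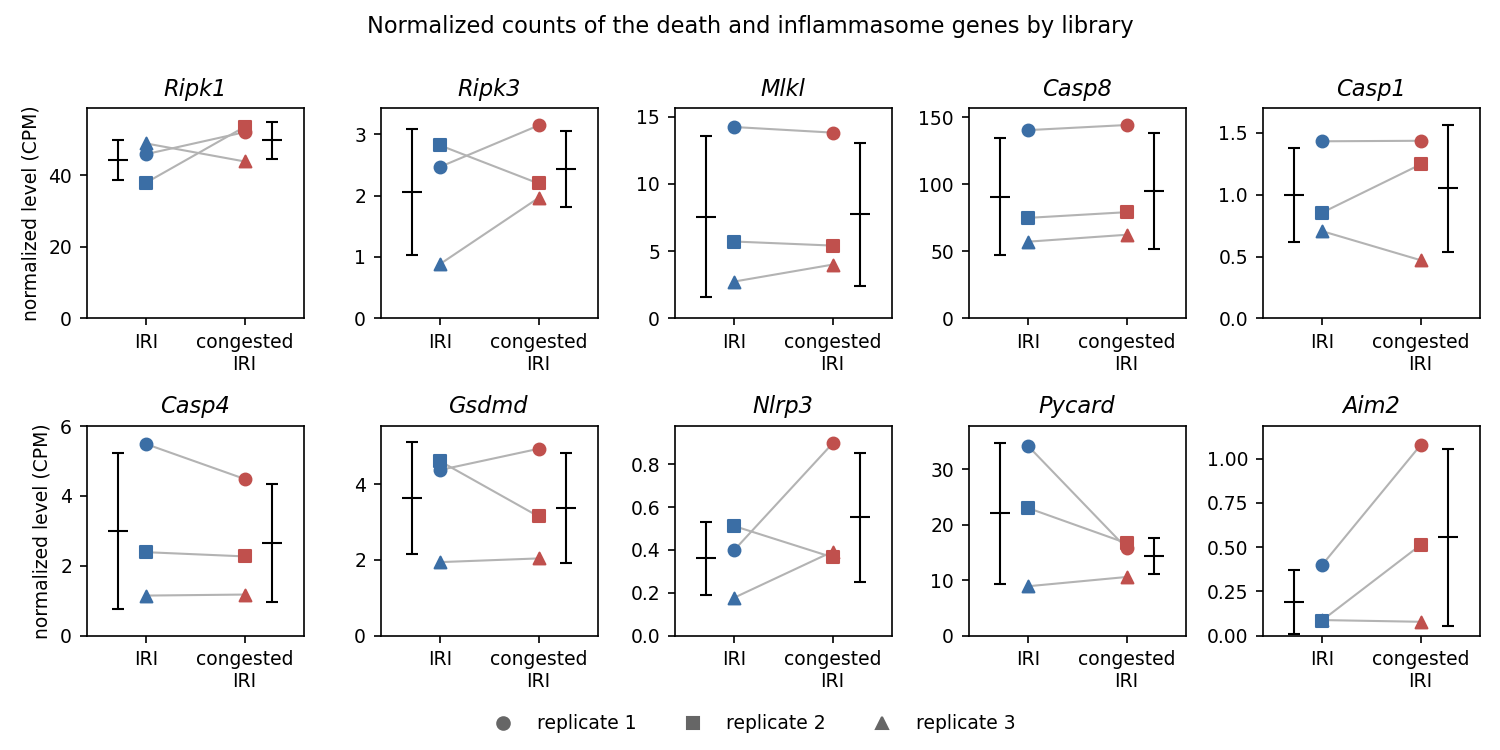
Normalized level (CPM, linear axis from 0) of each of the 10 genes in the 3 IRI (blue) and 3 congested IRI (red) libraries, with grey lines joining equal replicate numbers and black bars giving the mean ± SD of each group (n = 3). The groups overlap in every panel, and replicate 1 (circles) is the highest library of both groups for Mlkl, Casp8, Casp1, Casp4 and Aim2.

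The necroptosis kinases differed in level and in how steady they were. Ripk1, the upstream kinase at chr13:34002363-34037147 (GRCm38, plus strand), stood at 45.9, 37.9 and 48.9 CPM in IRI replicates 1, 2 and 3 and at 52.1, 53.5 and 43.9 CPM in congested replicates 1, 2 and 3. It was the steadiest of the 10, with its highest library 1.41 times its lowest. The group means were 44.2 ± 5.68 and 49.8 ± 5.20 CPM (SD, n = 3), and the log2 fold change was 0.17 ± 0.20 (SE, edgeR adjusted p = 0.933). The 95% interval, -0.28 to 0.63, was the narrowest among the members. Within equal replicate numbers the difference was 0.18, 0.50 and -0.16. Exons of Ripk1 overlap those of Serpinb6a on the other strand in part. They also overlap, over more bases, Gm17084, a processed pseudogene on the same strand. The strand setting of the counting is not given in the sources used here. In the bases shared by Ripk1 and Gm17084, strand cannot tell their reads apart. Serpinb6a stood at 207.4, 68.0 and 30.02 CPM in IRI and at 183.3, 59.3 and 38.5 CPM in congested replicates 1, 2 and 3. Whether reads of either overlapping gene entered the counts of Ripk1 was not tested.

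Ripk3, the kinase that commits a cell to necroptosis (chr14:55784995-55788865, minus strand), was low. Its IRI replicates held 2.47, 2.82 and 0.883 CPM, from 31, 33 and 10 reads, and its congested replicates 3.14, 2.20 and 1.96 CPM, from 35, 30 and 25 reads. A single IRI library, replicate 3, lay below the other 5. The log2 fold change was 0.24 ± 0.48 (SE, edgeR adjusted p = 0.949), and without IRI replicate 3 it was -0.12. Within equal numbers it was 0.33, -0.34 and 1.02.

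Mlkl, the executioner of necroptosis (chr8:111311797-111338177, minus strand), had its libraries in the same order of replicate numbers in both groups. It stood at 14.2, 5.72 and 2.74 CPM in IRI replicates 1, 2 and 3 and at 13.8, 5.42 and 4.002 CPM in the congested ones. Replicates 1 and 2 each lay close together across the groups, replicate 3 less so, and the highest library held 5.20 times the level of the lowest. The log2 fold change between groups was 0.03 ± 0.67 (SE, edgeR adjusted p = 0.993). With the replicate number as a block it was 0.11 with a standard error of 0.25 and a 95% interval of -0.45 to 0.68 (edgeR adjusted p = 0.851). Within the numbers the difference was -0.04, -0.08 and 0.52.

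Casp8, which encodes the protease that restrains RIPK1 and RIPK3 and also starts apoptosis (chr1:58795374-58847503, plus strand), had the highest level of the members. Its IRI replicates 1, 2 and 3 held 140.4, 74.96 and 57.2 CPM and its congested replicates 144.2, 79.2 and 62.4 CPM. It was the sole member higher in the congested library of all 3 equal numbers, by 0.04, 0.08 and 0.12, and 13.1% of all tested genes were higher in all 3. The log2 fold change was 0.07 ± 0.43 (SE, edgeR adjusted p = 0.979). With the block its 95% interval ran from -0.32 to 0.48.

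Both inflammatory caspases were weakly covered. Casp1, the caspase of the canonical inflammasome (chr9:5298517-5307265, plus strand), had 6 to 18 reads per library. It held 1.43, 0.854 and 0.706 CPM in IRI replicates 1, 2 and 3 and 1.44, 1.24 and 0.471 CPM in the congested replicates. Its log2 fold change was 0.06 ± 0.53 (SE, edgeR adjusted p = 0.983), with 0.47 in replicate 2 and -0.46 in replicate 3. Casp4, its neighbour on the same strand (chr9:5308828-5336783), stood at 5.49, 2.39 and 1.15 CPM in IRI and at 4.49, 2.27 and 1.18 CPM in congested replicates 1, 2 and 3. Both libraries numbered 1 lay above the other 4. Its log2 fold change was -0.20 ± 0.67 (SE, edgeR adjusted p = 0.969), and 0.57 without IRI replicate 1.

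Gsdmd, the pore-former cut by these caspases (chr15:75862327-75867408, plus strand), stood at 4.37, 4.61 and 1.94 CPM in IRI replicates 1, 2 and 3 and at 4.94, 3.15 and 2.04 CPM in congested replicates 1, 2 and 3. Both libraries numbered 3 were low, and replicates 1 and 2 lay above them in each group. The log2 fold change was -0.12 ± 0.47 (SE, edgeR adjusted p = 0.969). Equal numbers differed by 0.17, -0.53 and 0.07.

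The sensors were near the limit of detection. Nlrp3, which answers many signs of cell stress (chr11:59541568-59566956, plus strand), had 5, 6 and 2 reads in IRI and 10, 5 and 5 in congested replicates 1, 2 and 3. Aim2, the sensor of DNA in the cytosol (chr1:173350879-173466040, plus strand), had 5, 1 and 1 reads in IRI and 12, 7 and 1 in the congested replicates. Exact binomial 95% intervals, which cover counting error only, were 0.129 to 0.928 CPM for Aim2 in IRI replicate 1 and 0.556 to 1.88 CPM in congested replicate 1. Fitted with no filter, Nlrp3 had a log2 fold change of 0.58 ± 0.72 (SE, edgeR adjusted p = 0.872). For Aim2 it was 1.46 ± 0.92 (SE, edgeR adjusted p = 0.822). Neither passed the test.

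Pycard, the gene of the adaptor ASC (chr7:127989708-127993867, minus strand), had the fold change farthest from 0 among the 8 tested. Exons of Gm45205 on the other strand overlap 12.8% of its exonic bases. The IRI replicates 1, 2 and 3 of Pycard held 34.3, 23.1 and 8.92 CPM, and its congested replicates 15.8, 16.7 and 10.6 CPM. The 2 highest values were thus IRI libraries, but the lowest was one too. The means were 22.1 ± 12.7 and 14.4 ± 3.29 CPM (SD, n = 3). The log2 fold change of -0.62 had a standard error of 0.46 and a 95% interval of -1.69 to 0.45 (edgeR adjusted p = 0.933), and with the block it was -0.47 ± 0.27 (SE, adjusted p = 0.577). Within equal replicate numbers the difference was -1.11, -0.46 and 0.24, so that replicate 3 went the other way. The direction was below 0 in all 32 alternative settings tried, which gave -0.99 to -0.12. Every setting used the pair numbered 1 or the pair numbered 2, in both of which Pycard was lower, so they are not independent. Without replicate 1 in both groups, edgeR with the block gave -0.12 ± 0.36 (SE).

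**Figure D2:**
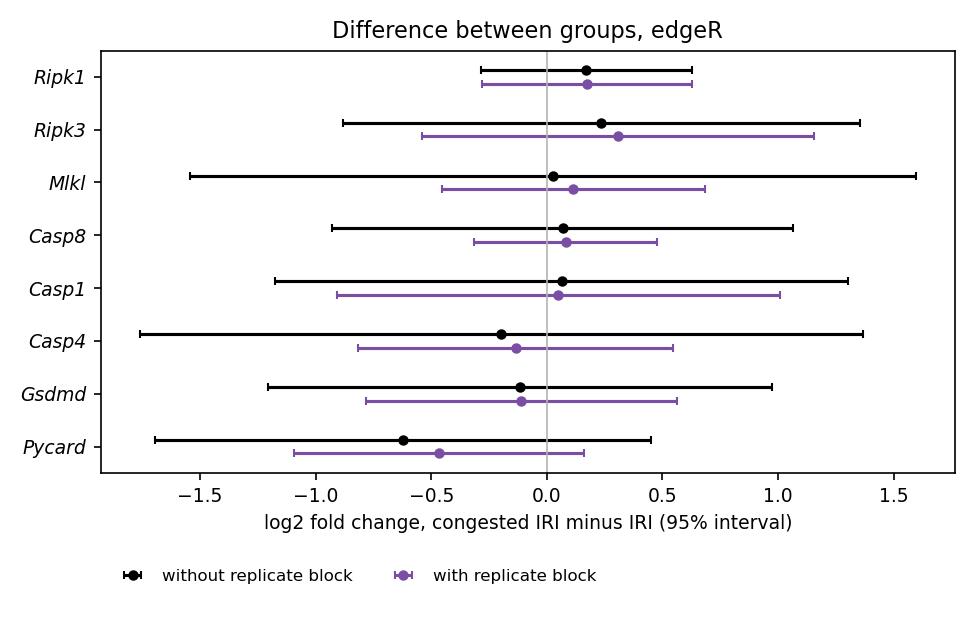
Log2 fold change (congested IRI minus IRI) with its 95% interval for the 8 tested members in edgeR, without (black) and with (purple) the replicate number as a block. All 16 intervals span 0, and that of Ripk1 without the block is the narrowest of the black ones, from -0.28 to 0.63.

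Leaving the libraries numbered 3 out of both groups changed the call for Pycard and Ripk1. With the remaining 2 pairs and the block, edgeR called 5457 of 14453 genes (37.8%), and among the members it called Ripk1 and Pycard. Pycard was lower in the congested libraries, with a log2 fold change of -0.79, a standard error of 0.18 and an edgeR adjusted p of 0.00169. The adjusted p of Pycard ran from 0.00113 to 1.00 over its alternatives, and the 5 that passed were all fits without replicate 3. Ripk1 was higher, at 0.34 ± 0.13 (SE, edgeR adjusted p = 0.0488), and its adjusted p ran from 0.0473 to 1.00. DESeq2 on the same 4 libraries called 3068 genes (27%), of which Pycard was the sole member, and limma-voom called 5564 (38.5%) with both members. Without replicate 1 in both groups edgeR called 12 genes (0.0833%), DESeq2 2 (0.0139%) and limma-voom 13 (0.0903%), none of them a member. Without replicate 2, edgeR and limma-voom called 9 each (0.0628%) and DESeq2 0, again no member.

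Differences within equal numbers followed gene length. By deciles of transcript length, the median difference of all genes ran from -0.63 in the shortest to 0.56 in the longest decile in replicate 1. In replicate 2 it ran from -0.66 to 0.64, and in replicate 3 from 0.15 to -0.13. Ripk1, with a principal transcript of 6472 bases, belonged to the longest decile. Its differences of 0.18, 0.50 and -0.16 had the signs of the medians of that decile, 0.56, 0.64 and -0.13. The length of Pycard is uncertain: GENCODE lists a transcript of 3800 bases, longer than the 2495 bases that the whole gene spans in RefSeq, whereas its coding part has 579 bases. By coding length Pycard fell in the second shortest decile, with medians of -0.27, -0.25 and 0.05 beside its own -1.11, -0.46 and 0.24. By transcript length it fell in decile 7, whose medians of 0.16, 0.18 and -0.03 had the opposite sign in each number. Casp1 also went against its decile of transcript length, with medians of -0.45, -0.45 and 0.10 beside its own 0.00, 0.47 and -0.46.

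**Figure D3:**
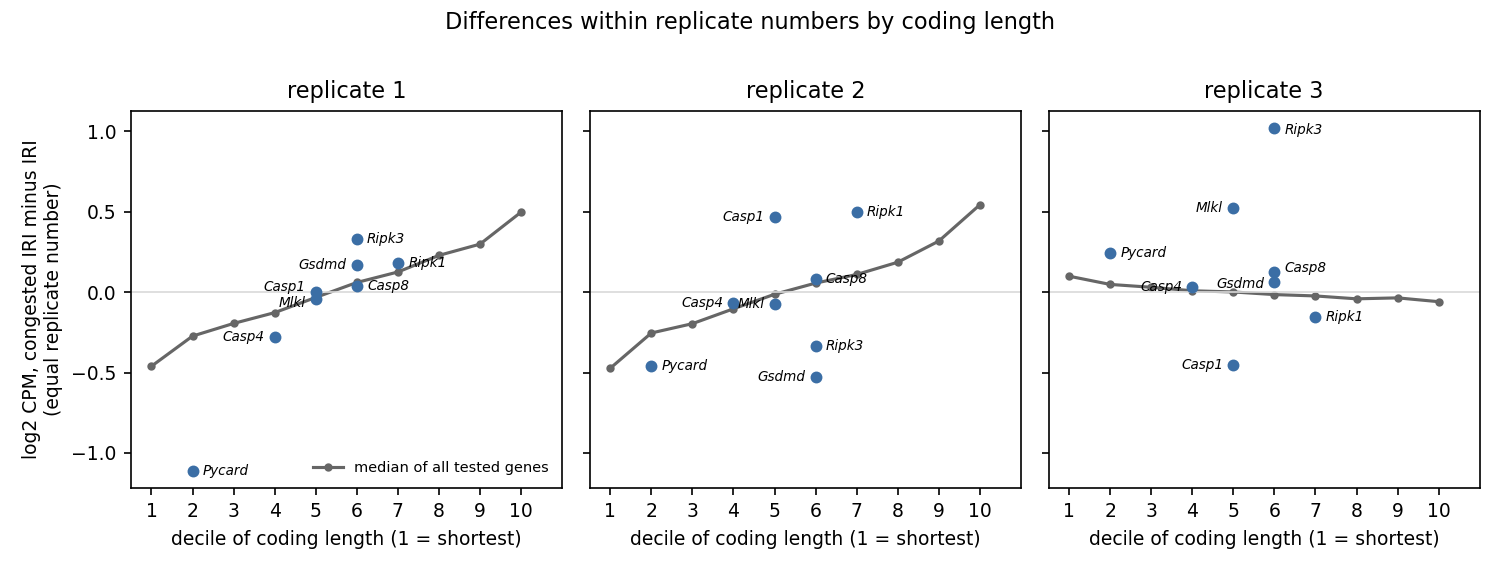
Median log2 difference (congested IRI minus IRI, equal replicate number) of all tested genes by decile of coding length (grey line), with the 8 tested members as blue points, in 1 panel per replicate number. The line rises from -0.46 to 0.50 in replicate 1 and from -0.47 to 0.54 in replicate 2 and falls from 0.10 to -0.06 in replicate 3, and Pycard lies in the second decile, below 0 in replicates 1 and 2 and above it in replicate 3.

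Removing a per-library trend in transcript length, an alternative chosen after seeing the data, turned the fold change of Ripk1 from 0.17 to -0.13 and left 0 of 13626 genes called (0%). On the 2 pairs numbered 1 and 2 with the block, 1951 genes (14.1%) were then called. Ripk1 was not called there, at -0.15 (edgeR adjusted p = 0.485), whereas Pycard was, at -0.98 (edgeR adjusted p = 0.00574). With a trend in coding length in its place, 3612 genes (28.5%) were called on those pairs. Ripk1 then stood at 0.16 (edgeR adjusted p = 0.398) and Pycard at -0.50 ± 0.18 (SE, edgeR adjusted p = 0.0484). Over all 6 libraries the value of Pycard was -0.78 with the transcript trend removed and -0.35 with the coding trend removed, neither past the threshold (edgeR adjusted p = 1.00 and 0.989).

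By replicate number, Mlkl, Casp8 and Casp4 differed, and all 3 were highest in replicate 1. Mlkl was lower by 1.33 in replicate 2 and by 2.06 in replicate 3 on the log2 scale than in replicate 1 (edgeR adjusted p = 0.0137). Casp8 was lower by 0.88 and by 1.25 (edgeR adjusted p = 0.0227), and Casp4 by 1.09 and by 2.09 (edgeR adjusted p = 0.0289). Those 3 of 8 stand beside the 3.51% of all genes called and highest in replicate 1. Pycard (edgeR adjusted p = 0.104), Gsdmd (0.137), Casp1 (0.288) and Ripk3 (0.336) did not pass, nor did Ripk1 (0.946), whose fitted values in replicates 2 and 3 were lower by 0.11 and by 0.07. DESeq2's likelihood ratio test and edgeR with no filter on low counts also called Pycard (adjusted p = 0.0415 and 0.00168). All 8 had lower fitted values in replicates 2 and 3 than in replicate 1, as did 42.0% of all tested genes. What the numbers share is not stated in the labels.

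**Figure D4:**
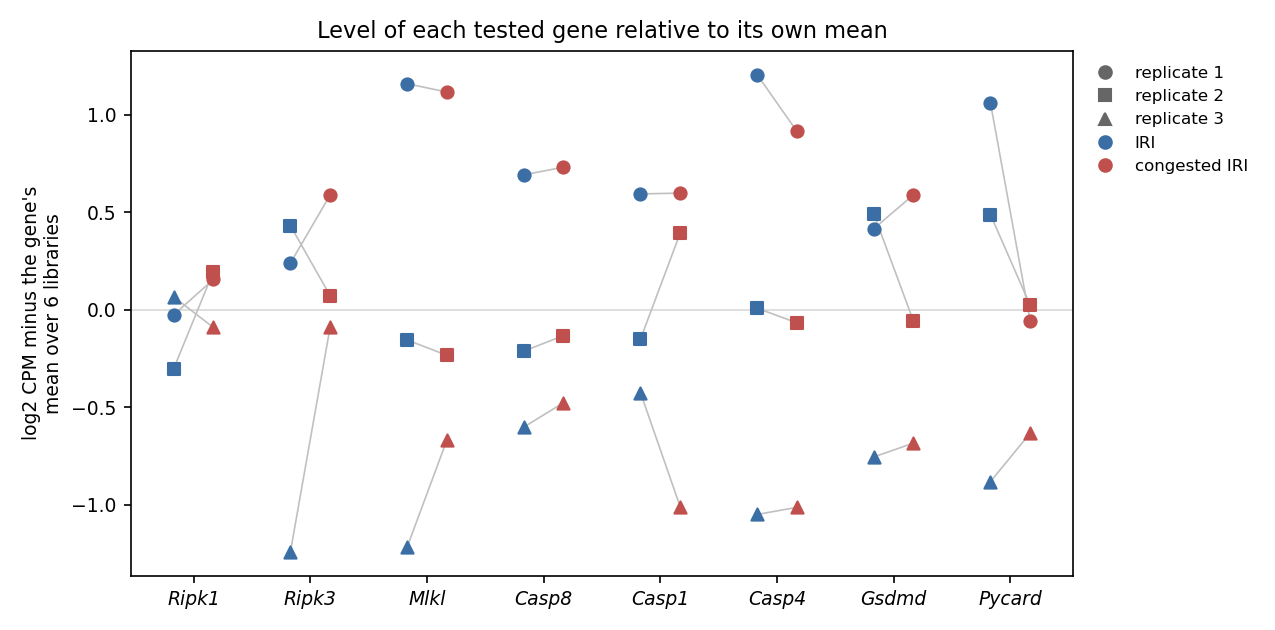
Log2 CPM of the 8 tested members minus the mean of each gene over the 6 libraries, with IRI in blue, congested IRI in red, a marker shape per replicate number and grey lines joining equal numbers. Replicate 1 (circles) of both groups lies highest for Mlkl, Casp8, Casp1 and Casp4, replicate 3 (triangles) lies lowest in both groups for every gene other than Ripk1 in the IRI group, and Ripk1 stays within a narrow band.

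Promoter sequence is shown for the genes that moved together with the replicate number, Mlkl, Casp8 and Casp4. Each run holds the 250 bases before a RefSeq start site (RefSeq, GRCm38.p6), 5′ to 3′ on the strand of the gene, and capitals mark matches to an NF-kappaB motif. The windows are chr8:111338206-111338455 for Mlkl (minus strand), chr1:58802252-58802501 for Casp8 (plus strand) and chr9:5308599-5308848 for Casp4 (plus strand), the last 21 bases of which lie in an annotated exon. The Casp8 window lies inside the annotated span of the gene, outside its exons. The RefSeq start of Mlkl lies outside the GENCODE span of the gene, and the bases after it matched no GENCODE transcript of Mlkl.
Mlkl: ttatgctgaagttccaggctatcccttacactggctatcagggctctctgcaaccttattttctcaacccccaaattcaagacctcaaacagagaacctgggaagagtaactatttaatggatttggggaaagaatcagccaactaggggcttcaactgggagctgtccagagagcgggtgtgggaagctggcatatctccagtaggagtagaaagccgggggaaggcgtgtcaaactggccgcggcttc
Casp8: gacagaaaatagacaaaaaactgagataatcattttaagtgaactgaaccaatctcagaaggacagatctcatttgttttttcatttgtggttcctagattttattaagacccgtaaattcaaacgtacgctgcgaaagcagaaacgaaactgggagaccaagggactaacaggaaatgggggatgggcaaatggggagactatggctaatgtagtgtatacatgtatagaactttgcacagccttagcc
Casp4: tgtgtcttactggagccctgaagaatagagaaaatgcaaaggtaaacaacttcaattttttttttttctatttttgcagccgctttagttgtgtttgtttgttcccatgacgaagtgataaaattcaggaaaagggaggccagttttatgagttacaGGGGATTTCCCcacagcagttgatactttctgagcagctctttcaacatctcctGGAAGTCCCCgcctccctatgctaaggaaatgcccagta
The 4 motifs below, of signal-driven factors, were searched on both strands: an interferon response element (GAAANNGAA), a STAT site (TTCNNNGAA), an AP-1 site (TGANTCA) and NF-kappaB. In the same window of 32851 RefSeq promoters, 7.13% held the first, 7.02% the second, 6.75% the third and 7.25% NF-kappaB. Only Casp4 among these 3 held a match, to NF-kappaB, in overlapping copies that begin 93 and 92 bases before the start and in a copy on the other strand that begins 39 bases before it. Neither Mlkl nor Casp8 held any of the 4 in this window. A GC box (GGGCGG), held by 32.7% of promoters, and a TATA box (TATAAA), held by 12.4%, were also absent from all 3 windows. Of the 10 members, 9 matched the RefSeq promoter table. Among the other members, matches to the first 4 motifs lay in second listed promoters, a STAT site present in 2 copies for Ripk1 and an NF-kappaB site for Nlrp3. The bases after that Nlrp3 start matched no GENCODE transcript of the gene. A match is a description of letters and says nothing on binding.

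Per kilobase of the principal transcript, the members spanned a wide range. Casp8 had a median of 29.8 CPM per kilobase over the 6 libraries, followed by Ripk1 at 7.32, Pycard at 4.27, Mlkl at 2.82, Gsdmd at 2.10, Casp4 at 1.62, Ripk3 at 1.23 and Casp1 at 0.701. Nlrp3 and Aim2 came last, at 0.098 and 0.086. Neighbours in this order overlapped in range over the libraries, other than Casp8 against Ripk1 and Casp1 against Nlrp3. The place of Pycard depends on its uncertain length. That of Casp4 also depends on the length used, as its principal transcript has 1435 bases and its annotated exons together cover 3710. Among all tested genes with a length, the mean of Casp8 lay at the 84.1 percentile and that of Ripk3 at the 15.2 percentile. Casp8 exceeded Ripk3 per kilobase 19.5- to 47.4-fold in the 6 libraries, Ripk1 exceeded it 3.93- to 16.2-fold and Mlkl 1.94- to 5.53-fold.

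The members also differed in how alike their profiles were over the 6 libraries. Likeness was measured as the root mean square distance between log2 profiles, each centred on its own mean. Mlkl and Casp4 were the closest pair among the 8, at 0.194, and Ripk1 and Mlkl the farthest apart, at 0.846. Over all genes of at least 5 CPM, the 3 nearest to Mlkl were Plaur, the urokinase receptor (0.110), Tubb2a, a beta-tubulin (0.111), and Il34, a ligand of the receptor of macrophage colony-stimulating factor (0.122), against a median distance of 0.889. Plaur stood at 59.7, 21.4 and 10.9 CPM in IRI and at 49.4, 19.5 and 13.3 CPM in congested replicates 1, 2 and 3, the same order as Mlkl. The nearest to Gsdmd were Lhpp, a phosphatase (0.061), Tubb2b, a beta-tubulin (0.104), and Bst2, an interferon-induced membrane protein (0.127), against a median of 0.587. These distances rest on 6 libraries.

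The wider pathways were described from 5 further lists, in which 0 genes were called between the groups. Of 28 regulators of necroptosis, which act on RIPK1, RIPK3, MLKL or the receptors upstream, 27 were tested, with 15 above 0 and a median of 0.01. Of the 27, 2 were higher in the congested group without overlap, Adar and Tnfaip3, and 1 lower, Fadd. Over all tested genes 6.49% had groups that did not overlap. Adar, the RNA editor that limits sensing by ZBP1, had 9.23, 14.3 and 16.3 CPM in IRI and 18.5, 20.7 and 18.8 CPM in congested replicates 1, 2 and 3 (log2 fold change 0.54, standard error 0.26, edgeR adjusted p = 0.933). The next by unadjusted p were Tradd, the adaptor of the TNF receptor, at -0.46, Tlr3, a sensor of double-stranded RNA, at 0.45, and Xiap, a ubiquitin ligase that restrains caspases, at 0.53. By replicate number, Birc3 (edgeR adjusted p = 0.0415) and Ikbkg (0.0239), both of NF-kappaB signalling, were called and highest in replicate 1.

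Of 27 other inflammasome genes 19 were tested, with 12 above 0 and a median of 0.15. Tlr4, the receptor of lipopolysaccharide, stood at 3.98, 2.13 and 3.27 CPM in IRI and at 9.78, 5.42 and 3.30 CPM in congested replicates 1, 2 and 3. Its log2 fold change was 0.97 ± 0.46 (SE, edgeR adjusted p = 0.933). Casp12 had 0.58, Ifi204, a DNA sensor, 1.03, and Naip2, a receptor of the NLRC4 inflammasome, 0.51. Ifi204 and Naip2 belong to families of near copies, so their reads are uncertain. By replicate number Naip1 and Ifi204 were called and highest in replicate 1 (edgeR adjusted p = 0.0132 and 0.0196), and Nlrp6, a sensor of epithelia, was called and lowest in it (0.0105).

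Among the executioners and cytokines of pyroptosis the interleukin-1 genes Il1rn and Il1b had the highest fold changes, and neither passed the test. Of 14 listed executioners and cytokines 9 were tested, with 5 above 0 and a median of 0.07. Il1b, the cytokine that caspase-1 matures, stood at 2.62, 0.768 and 0.353 CPM in IRI and at 7.81, 2.12 and 0.863 CPM in congested replicates 1, 2 and 3. It was higher in the congested library of each number, by 1.52, 1.29 and 0.99, yet the groups overlapped, as replicate 1 of IRI lay above congested replicates 2 and 3. The log2 fold change was 1.497 ± 0.94 (SE, edgeR adjusted p = 0.933), or 1.48 with the block (adjusted p = 0.577). Il1rn, the interleukin-1 receptor antagonist, had 5.09, 1.79 and 1.41 CPM in IRI and 16.5, 7.83 and 1.88 CPM in congested replicates 1, 2 and 3 (log2 fold change 1.65, standard error 0.80, edgeR adjusted p = 0.933). Both were called by replicate number and highest in replicate 1 (edgeR adjusted p = 0.0102 for Il1b and 0.0272 for Il1rn).

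Il18, the other cytokine matured by caspase-1, was also highest in replicate 1 of each group, without passing the test by replicate number (edgeR adjusted p = 0.0512), and its fold change between the groups lay below 0. It held 6.60, 3.42 and 1.85 CPM in IRI and 4.67, 2.86 and 1.73 CPM in congested replicates 1, 2 and 3, lower in the congested library of each number (log2 fold change -0.37, standard error 0.55, edgeR adjusted p = 0.936). Its binding protein Il18bp was at -0.45 and the alarmin Hmgb1 at -0.31. Gsdme, the gasdermin that caspase-3 cuts, was at 0.07 with 23.0 to 43.0 CPM over the 6 libraries.

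Of 10 ESCRT genes, whose products mend the membrane pores of both death routes, all were tested, with 6 below 0 and a median of -0.22. Tsg101 was at -0.33, Chmp2a at -0.53, Chmp6 at -0.38 and Chmp4b at -0.41 (edgeR adjusted p = 0.933 for each). Of 20 genes of the apoptotic core 18 were tested, with 8 above 0 and a median of -0.02. Those with the smallest p were Bad at -0.41 and Diablo at -0.50, both promoters of apoptosis, Casp2 at 0.28 and the survival gene Bcl2 at 0.42. Neither list held a gene called by group or by replicate number.

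Markers of neutrophils and of tubule injury moved with the libraries in which several members were high. The part of infiltrating cells or of tubule injury in the values above was not tested. Of 12 neutrophil markers 9 were in the table and 5 were tested, and all 5 were called and highest in replicate 1. Those in the table summed to 74.7, 8.88 and 5.12 CPM in IRI and 222.1, 16.3 and 7.93 CPM in congested replicates 1, 2 and 3. S100a8 alone held 20.2, 1.96 and 1.06 CPM in IRI and 60.04, 4.76 and 2.51 CPM in the congested replicates. Of 15 macrophage markers 13 were tested, and 3 were called and highest in replicate 1. Fitted values were highest in replicate 1 for 5 of the 13, against 42.0% of all tested genes. The macrophage sum ran from 127.0 to 198.4 CPM in IRI and from 128.9 to 407.7 CPM in congested libraries. Adgre1, the macrophage marker F4/80, did not follow the number, at 1.19, 1.37 and 2.65 CPM in IRI and 3.77, 3.07 and 2.28 CPM in congested replicates 1, 2 and 3.

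The 5 pan-leukocyte markers summed to 21.0 to 32.7 CPM in IRI and to 26.1 to 85.7 CPM in congested libraries. Ptprc, their defining gene, held 5.73, 4.87 and 5.83 CPM in IRI and 19.5, 9.66 and 4.94 CPM in congested replicates 1, 2 and 3. The leukocyte sum was higher in congested than in IRI replicate 1, at 85.7 against 32.7 CPM. The 10 members summed to 241.9 and 249.4 CPM in those libraries. Casp8 and Ripk1 make up most of that sum, so it does not show the low members. From IRI to congested replicate 1, Aim2 went from 0.398 to 1.08 CPM and Nlrp3 from 0.398 to 0.897 CPM, both on few reads. Pycard went from 34.3 to 15.8 CPM. A link of any member to the leukocyte sum was not tested. Of the 9 tubule injury genes 8 were called and highest in replicate 1, with sums of 6515 to 48240 CPM in IRI and 11269 to 65477 CPM in congested libraries. Of the 10 proximal tubule markers 5 were called and lowest in replicate 1, Slc34a1 among them (edgeR adjusted p = 0.00729). Their sum did not follow those 5 and was lower in the congested library of each number, at 60298, 50267 and 36964 CPM in IRI and 31036, 31359 and 34824 CPM in congested replicates 1, 2 and 3. Kap, the kidney androgen-regulated protein, was the largest part of it in each library, with 50706, 36074 and 21699 CPM in IRI and 23807, 17195 and 20692 CPM in the congested replicates (log2 fold change -0.81, edgeR adjusted p = 0.933). Of 9 lymphocyte markers 1 passed the filter, and it was called by replicate number and lowest in replicate 1. All 8 endothelial markers passed, and 1 of them was called by replicate number and lowest in replicate 1. In each of these lists 0 genes in the table were at 0 in every library.

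**Figure D5:**
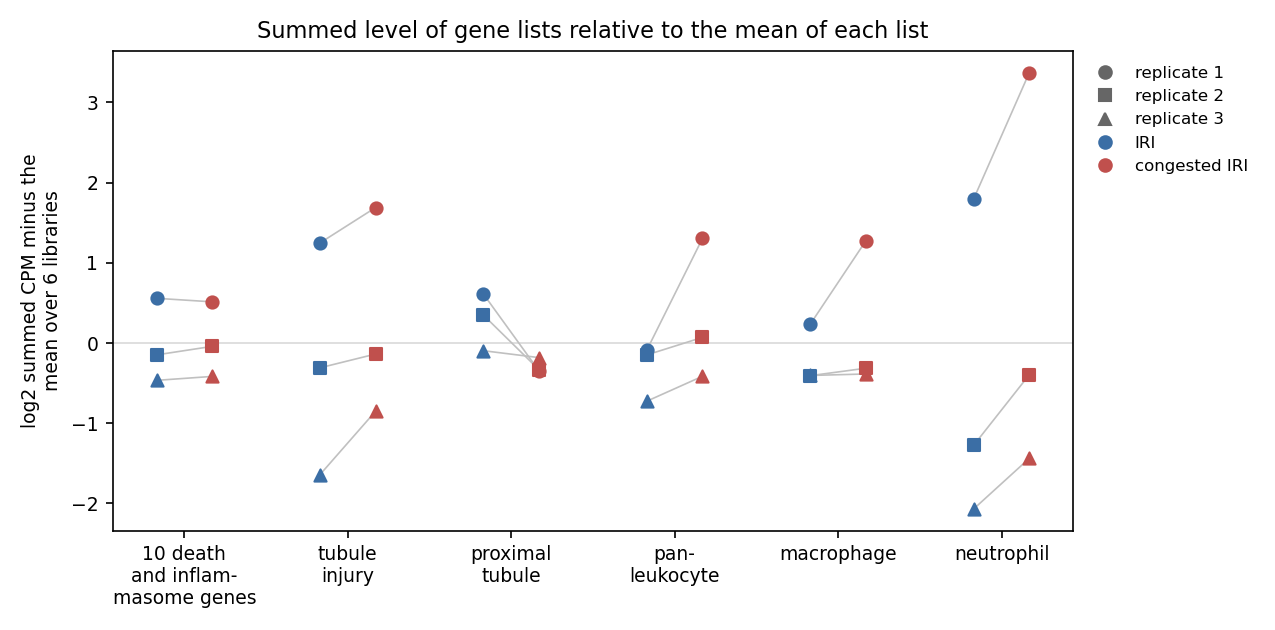
Log2 of the summed CPM of the 10 members and of 5 marker lists, each minus its mean over the 6 libraries, with IRI in blue, congested IRI in red and a marker shape per replicate number. The sum of the members, most of it Casp8 and Ripk1, lies closely alike in both groups within each replicate number. The neutrophil sum spans the widest range, from 5.12 to 222.1 CPM.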

How the data were processed

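Total RNA from kidney cortex was made into libraries with a stranded mRNA kit, per the labels. The authors deposited raw gene counts, as whole numbers, in 1 table with a column for each of the 6 samples, mapped by column name. STAR 2.7.10a, featureCounts, Subread and the build GRCm38 are named, with no role, per the submitters' processing notes. Strand and multimapping settings: not given in the sources used here.

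The test was the robust quasi-likelihood F test of edgeR 4.0.16 (R 4.3.3) on group, after TMM scaling and filterByExpr at a minimum count of 10 and a minimum total of 15. Adjustment was over all tested genes by Benjamini-Hochberg, and genes were called under 0.05. Log2 differences within equal replicate numbers used a prior count of 2. The replicate number was tested in the fit with group and number together. DESeq2 1.42.0, limma-voom (limma 3.58.1), other scalings, other filters, the block and leaving out libraries were alternatives. A per-library trend in length, and the fits of other tools on 2 pairs, were chosen after seeing the data. Lengths came from GENCODE principal transcripts of GRCm38, for 13626 of 14274 tested genes (95.5%), and coding lengths for 12570. The edgeR fits were first run on simulated counts with a shared dispersion and no effect of replicate number. A simulated length trend was the same in every congested library. The check therefore does not cover the differences between replicate numbers seen here.

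All 10 members were named. From each of 5 further lists the rule took up to 4 genes, called ones first, then those with the smallest unadjusted p, plus Il1b, Il18 and Gsdme. Marker lists were given by counts, sums and a defining gene, and pattern likeness for Mlkl and Gsdmd by their 3 nearest genes. The members and lists were chosen with earlier results of these data known.

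Both groups carry the replicate numbers 1 to 3, and no label says what an equal number means. Deviations from the group means correlated at 0.724, 0.342 and 0.429 between samples numbered 1, 2 and 3. Equal numbers were treated as pairs in the alternative fits with the block because both groups carry them. Replicates 2 and 3 also correlated when crossed. IRI replicate 2 correlated more with congested replicate 3 (0.401) than with congested replicate 2, and IRI replicate 3 with congested replicate 2 at 0.249. The matching of replicates 2 and 3 thus rests on the numbers alone. The main test was on group alone and did not use the pairs. With the block the standard error went from 0.43 to 0.17 for Casp8, from 0.67 to 0.30 for Casp4 and from 0.47 to 0.29 for Gsdmd. It went from 0.48 to 0.37 for Ripk3 and from 0.53 to 0.42 for Casp1, and for Ripk1 it was 0.20 in both fits. Between replicates of a group the chi-square divided by its degrees of freedom was 17.2 to 175, above sampling noise. Each was counted as a sample of its own, but this value cannot show whether the samples come from separate animals.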

Additional observations from a re-analysis of the deposited data

How the results depend on the processing

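No member was called under other scaling factors, other filters, DESeq2, limma-voom or the replicate block over all 6 libraries. With the replicate block edgeR called 0 genes, as did limma-voom, and DESeq2 10. With libraries left out, the count of genes called ran from 0 to 5564, and it passed 13 only in the fits with the block and without replicate 3 in both groups. The count of members above 0 ran from 1, without IRI replicate 3, to 7 when libraries were left out. By replicate number, DESeq2's likelihood ratio test called 1854 genes and edgeR with no filter called 3231. Without scaling factors 60.7% of all genes lay above 0 against 49.6%, and 5 members did in both. The sign of Casp1 turned with limma-voom (-0.028). The sign of Ripk1 turned with the transcript length trend removed, without and with the block (-0.13 and -0.11), as did those of Casp4 (0.10 and 0.13) and Gsdmd (0.069 and 0.057). That of Mlkl turned with the coding length trend removed (-0.0030). When libraries were left out, alone or together with the block, another tool or a length trend removed, fold changes ran from -0.15 to 0.34 for Ripk1, -0.12 to 0.71 for Ripk3, -0.69 to 0.87 for Mlkl, -0.37 to 0.53 for Casp8, -0.28 to 0.61 for Casp1, -0.81 to 0.57 for Casp4, -0.49 to 0.15 for Gsdmd and -0.99 to -0.12 for Pycard. The lowest for Ripk1 and the highest for Casp1 come from the fit with the transcript length trend also removed, and without it they were -5.9e-05 and 0.42. The cause of these changes was not tested. Depth limits Nlrp3, Aim2 and Casp1, with at most 18 reads in a library.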

Other observations

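Endothelial genes stood higher in the congested libraries without overlap for 3 of 8 markers, Eng, Cdh5 and Pecam1, beside 3.42% of all tested genes. Their log2 fold changes were 0.54 (standard error 0.19), 0.80 (0.30) and 0.40 (0.17), each at an edgeR adjusted p of 0.933, and each was higher in the congested library of all 3 replicate numbers. Of the other 5 markers Tek and Emcn lay below 0, at -0.30 and -0.23, and Emcn was lower in the congested library of all 3 numbers. Gbp7, an interferon-induced GTPase of inflammasome signalling, was named after its values were seen. It stood at 3.74, 7.17 and 24.7 CPM in IRI and at 22.8, 19.8 and 15.9 CPM in congested replicates 1, 2 and 3 (edgeR adjusted p = 0.933), so that 1 IRI library held the highest value. Zbp1, the sensor that can engage RIPK3 without RIPK1, was also named after its values were seen. It was higher in the congested library of each number, by 0.40, 0.52 and 0.57, as were 13.1% of all tested genes. The log2 fold change of Zbp1 over the groups was 0.55 ± 0.42 (SE, edgeR adjusted p = 0.933). Its groups overlapped, and it had 9 to 31 reads per library.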
